A study of Mus musculus with 24 samples.

Results

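Sox2-alone sites were the peaks of the asynchronous Sox2 library that overlapped, by at least 1 bp, no peak of the asynchronous Oct4 list and no peak of the 3 asynchronous Klf4 lists. There were 995 of them among 2986 asynchronous Sox2 peaks (33.3%), and the 17 deposited lists together held 248259 peaks. Of the other 1991 Sox2 peaks, 420 overlapped Oct4 without Klf4, 815 overlapped Klf4 without Oct4 and 756 overlapped both. "Alone" stands for the absence of a listed peak of those 2 factors in asynchronous cells and says nothing of other factors or of binding below the calling threshold.

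The cells were V6.5, an embryonic stem cell line from a C57BL/6 × 129 hybrid mouse. They were grown on irradiated feeder fibroblasts with serum and LIF, and then passaged on gelatin with 2i (inhibitors of MEK1 and Gsk3) before synchronization. Asynchronous cells carried no arrest. Mitotic cells had 7 h of nocodazole, a drug that blocks the spindle, at a labelled 100 ug/ml, and were shaken off the plate. All samples were fixed in 1% formaldehyde for 10 min, and single reads of 50 nt were taken in chromatin immunoprecipitation followed by sequencing (ChIP-seq). Peak lists were given for Sox2 (1 asynchronous and 2 mitotic libraries), Oct4 (1 and 2), Klf4 (3 and 3) and H3K27ac (2 and 2), and for 1 Klf4 library in which 10% of the cells were embryonic stem cells and 90% neural progenitors. The other 7 of 24 samples were inputs. All Sox2 and Oct4 libraries shared a project code in their titles (EC-EA-3702). The asynchronous H3K27ac libraries came from another project (EC-DG-3458) than the mitotic ones (EC-DG-3514), so state and project cannot be told apart for that mark. Nothing in the labels says that libraries came from separate cultures, so a spread between them may be technical.

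Sox2 is an HMG-box protein that binds the minor groove of DNA at a short AT-rich word and bends it. In embryonic stem cells it often binds next to Oct4, a POU-domain protein, at a joint Sox-Oct word, and the pair activates enhancers of pluripotency genes. Klf4 is a zinc finger protein that binds GC-rich words, often in promoters and enhancers of the same genes. Sox2 also acts with other partners, such as POU proteins of the neural lineage. During mitosis most transcription stops, and some factors stay on part of their sites, which is known as mitotic bookmarking. H3K27ac is a histone mark of active promoters and enhancers.

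No sequencing depth came with the lists, so the depth behind a peak is unknown and only the number of listed peaks shows what a library yielded. The Sox2 lists held 2986 peaks in asynchronous cells and 4537 and 1940 in mitotic 1 and mitotic 2. The Oct4 lists held 3347 peaks in asynchronous cells and 1246 and 5282 in mitosis, the Klf4 lists between 3795 and 21307, and the H3K27ac lists between 30771 and 47475. Klf4 asynchronous 2, the longest factor list, overlapped by itself 49.1% of all Sox2 peaks. H3K27ac peaks lay within 1 kb of a gene end at 27, 27, 25 and 24 of 30 naive pluripotency genes in the 4 lists, at 20, 24, 14 and 9 of 34 neural progenitor genes and at 6, 5, 5 and 3 of 20 genes of feeder fibroblasts, beside 52.0%, 51.5%, 43.4% and 40.4% of all protein-coding genes. Housekeeping genes had one at 23, 24, 22 and 22 of 25. Of 5 naive genes looked at singly, Pou5f1, Nanog, Sox2 and Klf4 had such a peak in all 4 lists and Esrrb in none. Among neural genes, Sox1 and Nes had one in 4 and 3 lists, and Pax6 only in asynchronous list 2. Among fibroblast genes, Col1a1 had one only in asynchronous list 1, and Col1a2 and Thy1 had none.

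Of the 995 sites, 10 overlapped a RefSeq promoter window (250 bases before to 50 after a gene start, GRCm38.p6), 11 windows in all. Sequence was at hand for promoters only. These few sites do not stand for the 995, of which 59.2% lay over 20 kb from any gene end. The letters below run 5′ to 3′ on the gene's strand and have the Sox core word AACAANG, on either strand, in capitals. They cover the part of the Sox2 peak that lies before the gene start and inside the window. The rest of a peak is not shown. The first 2 sites had a Sox2 peak in mitosis and no H3K27ac, and the other 2 had H3K27ac in all 4 lists and no Sox2 peak in mitosis. Of the 10 sites only the first 2 had a mitotic Sox2 peak, so the 4 printed do not show how common either kind is.
Gm52782, chr5:33826162-33826276, minus strand: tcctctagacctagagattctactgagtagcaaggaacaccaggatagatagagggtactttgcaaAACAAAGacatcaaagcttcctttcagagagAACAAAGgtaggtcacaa
Rfx4, chr10:84755964-84756047, plus strand: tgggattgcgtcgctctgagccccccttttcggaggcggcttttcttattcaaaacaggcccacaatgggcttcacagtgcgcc
Ncapd2, chr6:125191587-125191615, minus strand: agcttgaaaaccatctCGTTGTTtggcgc
Srsf7, chr17:80207333-80207446, minus strand: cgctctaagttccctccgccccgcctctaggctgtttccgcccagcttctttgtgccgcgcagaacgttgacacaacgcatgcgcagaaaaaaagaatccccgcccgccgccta

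The Gm52782 site, with 2 Sox core words in its printed stretch, had a fold of 5.07 in the asynchronous Sox2 list and was listed in both mitotic Sox2 lists. The Rfx4 site (Rfx4 is a winged-helix factor of the developing brain) was listed in mitotic 1 and not in mitotic 2, and its printed stretch held no Sox core word. The Ncapd2 site, at a gene for a condensin subunit that compacts mitotic chromosomes, had a fold of 4.92 and lay 13 bp from an asynchronous Klf4 peak. The Srsf7 site, at a splicing factor gene, had a fold of 5.12. Over whole windows, 3 of the 11 held AACAANG, against 12.3% of 21263 promoters, and 4 held GGGNGTGG, a Klf word, against 19.4%; of those 4, a pair are overlapping Gpr19 windows at the same site. None of the 11 held the octamer ATGCAAAT, which 1.66% of promoters held, nor the joint Sox-Oct composite word, found in 0.00941%. These are letter matches on both strands and a description only. In the part of the Sox2 peak before the gene start, none of the 4 windows with a Klf word held it. The Gm46977 window likewise did not have its Sox core word within that part.

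The sites were chosen by listed peaks of the asynchronous Sox2, Oct4 and Klf4 libraries, so their strength in the asynchronous Sox2 list is given without a test. The deposited fold enrichment, the ratio of signal to local background, had a median of 5.38 at Sox2-alone sites and ranged from 2.47 to 18.0. At the other Sox2 sites the median was 6.12, and at sites with both partners 6.77. The deposited −log10 p had a median of 7.01 (5.08 to 38.2) against 8.85, and the width a median of 178 bp against 211. Of the 995 sites, 40 had a q above 0.05. The sites were thus weaker and narrower on the median than the rest, while their range reached far into it.

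The rule has an edge in distance. Of the Sox2-alone sites, 18 lay under 100 bp from an asynchronous Oct4 or Klf4 peak, 76 under 500 bp and 354 (35.6%) under 10000 bp, and the median distance was 19.3 kb. On the other side, 3 of the other Sox2 sites shared at most 10 bp with their closest Oct4 or Klf4 peak, and 10 shared at most 50 bp. A site inside Sgcd, a dystrophin-associated sarcoglycan gene, was 1056103 bp from any asynchronous Oct4 or Klf4 peak. Other sites named below lay close to such a peak, among them those by Abcg2 (408 bp), Pou5f1 (585), Suz12 (601), Chordc1 (758), Gm40035 (765) and Arid1b (822).

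In mitosis, Sox2-alone sites were found again less often than other Sox2 sites. Mitotic 1 held 545 of 995 (54.8%, 95% Wilson interval 51.7 to 57.8), against 76.4% of the other Sox2 sites and 69.2% of all asynchronous Sox2 sites. Mitotic 2 held 261 (26.2%, 23.6 to 29.1), against 51.9% of the others and 43.3% of all. The difference from the other sites was −21.7 percentage points in mitotic 1 (95% Newcombe interval −25.3 to −18.1) and −25.7 in mitotic 2 (−29.1 to −22.1). Both intervals lie below 0. All intervals here cover counting error over sites and not the spread between libraries, which was wide: the mean over the 2 lists was 40.5% ± 20.2 (SD, n = 2) for Sox2-alone sites and 64.2% ± 17.4 for the others. One asynchronous library against 2 mitotic ones allows no test across libraries.

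Both mitotic lists held 236 Sox2-alone sites (23.7%, against 40.9% of all Sox2 sites), and neither held 425 (42.7%, against 28.3%). Of the 334 sites in a single list (33.6%, against 30.8% of all), 309 were in mitotic 1, the longer list, and 25 in mitotic 2. Among the other Sox2 sites 49.4% were in both lists and 21.1% in neither. Set beside each class in mitotic 1, Sox2-alone sites at 54.8% followed sites with Klf4 at 66.4%, sites with Oct4 at 82.9% and sites with both at 83.7%. In mitotic 2 the same classes stood at 26.2%, 42.5%, 50.7% and 62.7%.

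**Figure D1:**
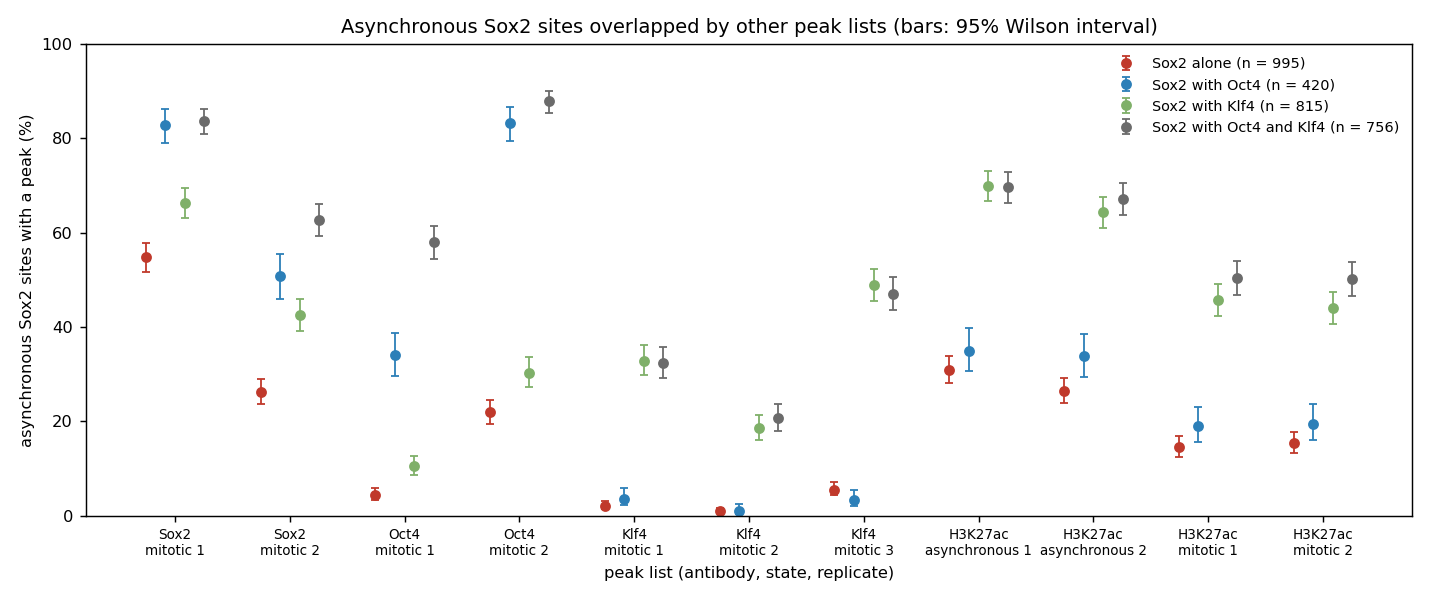
Percent of asynchronous Sox2 sites (y axis) overlapped by each of 11 peak lists (x axis), for Sox2-alone sites and the 3 classes with an asynchronous Oct4 or Klf4 peak; points are percentages and bars 95% Wilson intervals over sites. Sox2-alone sites were lowest in both mitotic Sox2 lists, at 54.8% and 26.2%, and lay near the sites with Oct4 in the 4 H3K27ac lists.

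Since weaker peaks were found less often in mitosis, the comparison was repeated within quintiles of the deposited −log10 p. In mitotic 1 the share of Sox2-alone sites found was 38.9% in the weakest quintile (n = 298) and 46.4%, 55.8%, 73.9% and 93.2% in the next 4, the last with 88 sites. The other Sox2 sites stood at 55.9%, 58.4%, 73.4%, 85.1% and 96.5%. In mitotic 2 the shares were 10.1%, 17.6%, 28.4%, 42.9% and 68.2% against 27.1%, 26.6%, 42.7%, 59.7% and 84.8%. The Sox2-alone share was the lower of the pair in all 5 quintiles of both lists, and the intervals of the pair overlapped in the strongest quintile of mitotic 1. Weighted by the Sox2-alone sites, the difference within quintiles was −13.8 points in mitotic 1 (−17.5 to −10.1) and −14.5 in mitotic 2 (−17.9 to −11.1).

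By class, within quintiles, Sox2-alone sites differed most from sites with Oct4 in mitotic 1, by −24.7 points (−30.1 to −19.4). They differed from sites with Klf4 by −6.39 points there (−10.8 to −1.93). In mitotic 2 these differences were −17.3 (−23.0 to −11.6) and −10.7 (−14.7 to −6.61). Against sites with both partners they were −18.9 and −18.2 points. No interval of these 6 differences included 0.

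**Figure D2:**
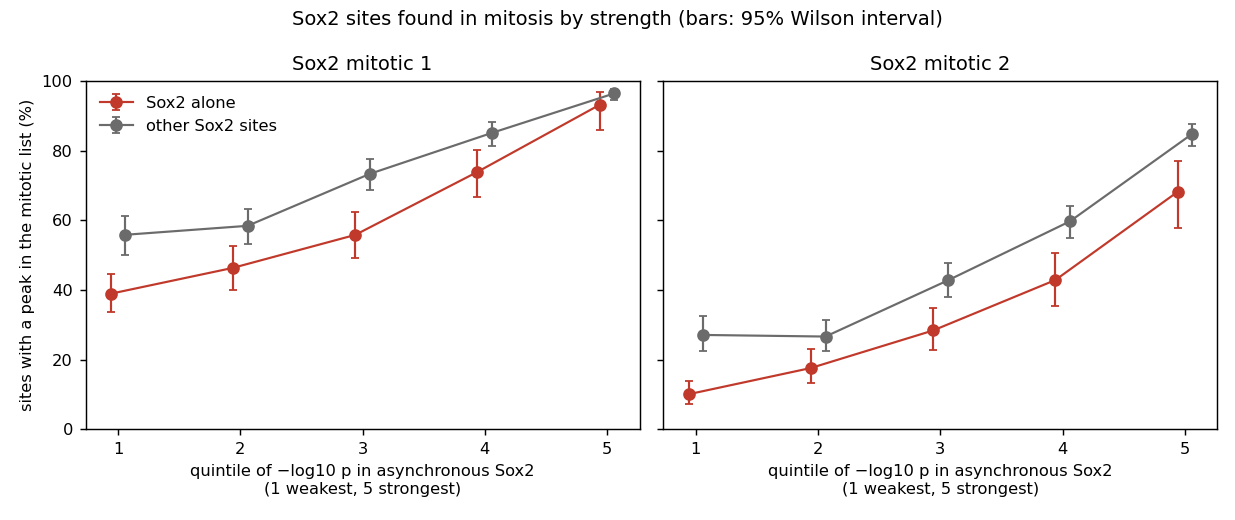
Percent of sites with a peak in Sox2 mitotic 1 (left) and mitotic 2 (right) by quintile of the deposited −log10 p in asynchronous cells (x axis), for Sox2-alone sites and all other Sox2 sites, with 95% Wilson intervals. The Sox2-alone share rises from 38.9% to 93.2% on the left and from 10.1% to 68.2% on the right, below the other sites in each quintile.

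Sites found in both mitotic lists were the stronger ones in asynchronous cells, with a median fold of 6.25 and a median width of 232 bp. Sites in a single mitotic list had 5.38 and 190 bp, and sites in neither 4.98 and 156 bp, with a highest fold of 8.87. Where a mitotic peak was listed, its median fold was 6.29 in mitotic 1, where all peaks had a median of 5.61. In mitotic 2 it was 5.46, the same as all peaks there. Peaks at Sox2-alone sites were by choice listed in asynchronous cells too, and the whole lists were not, so nothing is read from this comparison.

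The sites described next are the strongest of those in both mitotic lists, so their presence in mitosis was part of the choice and not a result. The strongest Sox2-alone site lay inside Hecw1, a gene of a HECT-type ubiquitin ligase (chr13:14290043-14290332, mm10). Its fold was 18.0 in asynchronous cells, 15.4 in mitotic 1 and 5.85 in mitotic 2. The next, inside Sgcd (chr11:47640643-47640918), had folds of 15.4, 7.81 and 8.45, with an Oct4 peak of 5.33 in Oct4 mitotic 2 and no H3K27ac in any list. A site 24.2 kb from Ncr1, a receptor gene of natural killer cells (chr7:4313139-4313524), had folds of 13.8, 15.5 and 9.76. The library with the highest fold was the asynchronous one at Hecw1 and Sgcd and mitotic 1 at Ncr1.

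A site 273.3 kb from Pfkp, a phosphofructokinase gene of glycolysis (chr13:6922330-6922707), had a higher fold in mitotic 1 than in asynchronous cells, at 18.6 against 13.2, and 7.61 in mitotic 2. It also carried Oct4 peaks in both mitotic lists (4.77 and 11.7). A site inside Arid1b, a subunit gene of the BAF chromatin remodelling complex (chr17:5052185-5052468), was low in mitotic 1 (4.99) and higher in mitotic 2 (7.58), with 9.47 in asynchronous cells. The Zbtb41, Siah3, Myl1, Wac and Chordc1 sites, the rest of the 10 strongest in both lists, had asynchronous folds of 11.9 to 14.1. Myl1, at 13.2, 13.4 and 7.88, encodes a light chain of fast muscle myosin. A nearest gene gives a position here, not a target, since several of these genes lie over 100 kb away. Folds of different libraries were not scaled to each other, so their order shows rank within each site's lists and no loss or gain.

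Of the strongest sites in neither mitotic list, 1 lay 183.8 kb from Tbl1xr1, a gene of the NCoR corepressor complex (chr3:21892183-21892476, fold 8.87). It had an Oct4 peak of 6.14 in Oct4 mitotic 2 and H3K27ac folds of 11.4 and 8.47 in asynchronous cells. A site inside Map3k5, a stress-activated kinase gene (chr10:20030804-20031113), had a fold of 8.44 and an Oct4 peak of 4.64 in Oct4 mitotic 2, with no H3K27ac. A site inside Blnk, an adaptor gene of B cell receptor signalling (chr19:40936073-40936295, fold 7.99), had H3K27ac in all 4 lists, at folds of 14.7, 15.9, 6.40 and 6.34. So a site without a listed mitotic Sox2 peak could hold mitotic Oct4 or H3K27ac. The first by −log10 p (17.2), 28.7 kb from Gm40035, had a fold of only 2.84 and H3K27ac folds of 1.58 to 2.00, and 4 Sox2-alone sites in all had a fold below 3. The Gm14410, Clybl, Chodl and Ado sites had folds of 5.58 to 8.44.

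**Figure D3:**
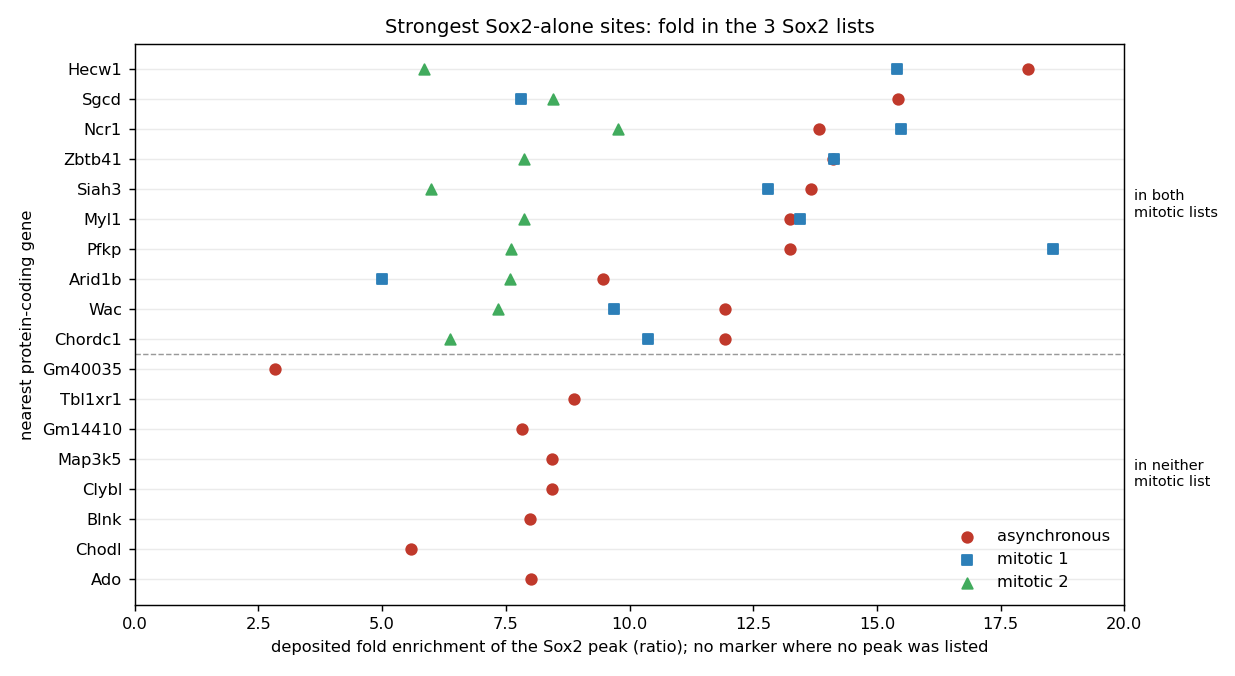
Deposited fold enrichment (x axis, ratio) of the Sox2 peak in the asynchronous, mitotic 1 and mitotic 2 lists at the 10 Sox2-alone sites of highest −log10 p in both mitotic lists (top) and the 8 in neither (bottom), by nearest protein-coding gene (y axis); a missing marker means no listed peak. The top sites span 9.47 to 18.0 in asynchronous cells and the bottom sites 2.84 to 8.87.

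Oct4, absent from these sites by the rule in asynchronous cells, was listed at 223 of 995 in at least 1 mitotic Oct4 list (22.4%, against 50.5% of all Sox2 sites). Oct4 mitotic 1 held 44 (4.42%, against 23.8% of all), Oct4 mitotic 2 held 218 (21.9%, against 49.5%), and 39 were in both (3.92%, against 22.8%). The shares go with the length of the lists, 1246 and 5282 peaks, and the asynchronous Oct4 list, with 3347, was in between. Since the rule fixed the asynchronous Oct4 list, these shares are a description, with no test. The median fold at the 218 sites was 5.26, beside 5.59 over all peaks of that list.

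At the 5 strongest sites with Oct4 in both mitotic lists, Sox2 was also listed in both. They were picked by asynchronous Sox2 strength and lie in the strongest quintile. There 67.0% of Sox2-alone sites, with or without mitotic Oct4, were in both mitotic Sox2 lists, so nothing is read from this. The site 12.1 kb from Suz12, a core gene of Polycomb repressive complex 2 (chr11:79980687-79980969), had Sox2 folds of 8.75 in asynchronous cells and 8.33 and 10.6 in mitosis, and Oct4 folds of 6.83 and 10.2. Its H3K27ac folds were 22.2 and 13.3 in asynchronous cells, with none listed in mitosis. The site 28.2 kb from Immp2l, a gene of a mitochondrial inner membrane peptidase (chr12:40995667-40995875), had Sox2 folds of 11.1, 6.97 and 7.34, Oct4 folds of 7.75 and 6.60, and H3K27ac in all 4 lists (21.7, 25.1, 6.02 and 8.40). The sites inside Dars, an aspartyl-tRNA synthetase gene, and Prmt8, an arginine methyltransferase gene, had Oct4 folds of 4.36 to 5.26 and no H3K27ac. The 5 strongest such sites thus ran from strong H3K27ac to none. The highest Oct4 fold, 37.3 in mitotic 2, was at a site 99.5 kb from Gm8882 that was chosen here after its values were seen; in Oct4 mitotic 1 its fold was 5.23.

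Sox2-alone sites with a mitotic Oct4 peak were found more often in the mitotic Sox2 lists than those without. In Sox2 mitotic 1 it was 167 of 223 (74.9%) against 378 of 772 (49.0%), a difference of 25.9 points, and 20.5 points within quintiles of strength (14.1 to 26.9). In Sox2 mitotic 2 it was 49.3% against 19.6%, a difference of 29.8 points, and 25.3 within quintiles (18.7 to 32.0). Both asynchronous H3K27ac lists held 22.9% of the sites with mitotic Oct4 and 23.6% of those without, a difference of −0.705 points (−6.62 to 5.89). All these Oct4 and Sox2 libraries share a project, and its part in the result was not tested.

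Klf4 was rarer still in mitosis. Klf4 mitotic 1, 2 and 3 held 20 (2.01%), 9 (0.905%) and 55 (5.53%) of the 995 sites, beside 18.4%, 10.7% and 27.6% of all Sox2 sites. At least 1 of the 3 lists held 70 sites (7.04%, against 32.5%), at least 2 held 11 (against 16.6% of all) and all 3 held 3 (against 7.6%). The Klf4 list of the cell mix held 3 (0.302%, against 0.268% of all). Mitotic 3 held the most; it is the longest of the 3 mitotic Klf4 lists and the only one from the project of the Sox2 libraries (EC-EA-3702), mitotic 1 and 2 being from EC-DG-3514, and the part of either in the result was not tested. The 70 sites had H3K27ac in all 4 lists in 27.1% of cases, and the 925 others in 7.68%.

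The 3 sites in all mitotic Klf4 lists lay by Arl14epl, Zfp600 and Zfp980. The Arl14epl site, 7.07 kb from the gene, had Klf4 folds of 6.74, 6.07 and 4.36, Sox2 folds of 7.48, 9.80 and 4.28, and H3K27ac folds of 31.0, 29.3, 8.92 and 10.8. The Zfp600 and Zfp980 sites, both on chromosome 4 in a cluster of zinc finger genes with near-identical copies, had mitotic peaks of Klf4 (3.27 to 5.79), Oct4 (5.66 to 7.15) and Sox2 (6.17 to 7.82) and no H3K27ac. How reads of such copies were assigned is not given in the sources used here, so these sites are uncertain. The site 7.52 kb from Med26, a Mediator subunit gene (chr8:72555832-72556100), had Klf4 folds of 3.96 and 6.55 and H3K27ac only in mitosis (4.75 and 4.99). Of these 4 sites, the 2 by zinc finger genes were the ones with no H3K27ac.

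Counting every stem cell list, asynchronous and mitotic, 729 of the 995 sites (73.3%) had no listed Oct4 or Klf4 peak, and 266 (26.7%, against 63.4% of all Sox2 sites) had one in mitosis. The same 729 are 24.4% of all Sox2 sites, since by the rule every other Sox2 site has such a peak, and nothing is read from that share. At the 729 sites Sox2 was listed in mitotic 1 at 47.3% and in mitotic 2 at 18.8%, and at the 266 sites at 75.2% and 46.6%.

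H3K27ac was less frequent at Sox2-alone sites than at the other Sox2 sites. The 2 asynchronous lists covered 307 (30.9%, 28.1 to 33.8) and 263 (26.4%) of them, against 62.5% and 59.0% of the others and 51.9% and 48.2% of all Sox2 sites. The 2 mitotic lists covered 144 (14.5%) and 153 (15.4%), against 41.8% and 41.2% of the others and 32.7% and 32.6% of all. The 4 differences were −31.6 (−35.1 to −28.0), −32.6, −27.4 and −25.8 points, and no interval included 0. Within quintiles of Sox2 strength they were −29.4, −30.3, −25.3 and −23.4 points.

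The gap lay between sites with and without Klf4. Against sites with Oct4 and no Klf4, which stood at 35.0%, 33.8%, 19.0% and 19.5%, the differences were −4.15 (−9.59 to 1.15), −7.38 (−12.7 to −2.18), −4.58 (−9.10 to −0.401) and −4.15 points (−8.72 to 0.0886). Of these, 2 intervals included 0. Within quintiles the differences were 0.132 (−5.41 to 5.67), −3.21, −3.44 and −2.47 (−6.97 to 2.04), and all 4 intervals included 0. Against sites with Klf4 and no Oct4 the differences within quintiles were −37.5, −36.5, −29.6 and −26.9 points. For Sox2 in mitosis the order was the other way: Sox2-alone sites were nearer to sites with Klf4 than to sites with Oct4.

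From asynchronous to mitotic lists the share of Sox2-alone sites with H3K27ac went from 28.6% ± 3.13 (SD, n = 2) to 14.9% ± 0.640, and the groups did not overlap. The difference of −13.7 points had an exact two-sided permutation p of 0.33, the smallest that 2 against 2 libraries can give. The lists themselves shortened, from 47475 and 46491 peaks to 36526 and 30771. The other Sox2 sites went from 60.7% to 41.5%, with the same p. The median fold of the H3K27ac peaks at Sox2-alone sites was 8.80 and 8.88 in asynchronous cells and 5.72 and 5.76 in mitosis, above the medians of the whole lists (6.03, 5.95, 4.65 and 5.06).

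All 4 H3K27ac lists covered 90 Sox2-alone sites (9.05%, against 25.1% of all Sox2 sites), and none covered 630 (63.3%, against 41.6%). Both asynchronous lists and no mitotic list covered 99 (against 12.9% of all), and both mitotic lists and no asynchronous list 10 (against 1.17%). Among the 4-list sites were those 12.8 kb from Mppe1 (Sox2 folds of 11.5, 15.8 and 8.95) and inside Abcg2, a drug efflux transporter gene (8.51, 4.04 and 4.06). Among sites in both mitotic Sox2 lists with no H3K27ac anywhere were those by Sgcd, Siah3, Pfkp, Lrfn5 and Crybg1. The Lrfn5 site, 849.3 kb from this neuronal adhesion gene (chr12:62707259-62707518), had Sox2 folds of 10.8, 13.8 and 8.14 and an Oct4 fold of 7.28 in mitotic 2. In all, 126 of the 236 sites in both mitotic Sox2 lists (53.4%) had no H3K27ac in any list.

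The presence of Sox2 in mitosis was also compared between Sox2-alone sites with and without H3K27ac in asynchronous cells. Of 233 sites in both asynchronous H3K27ac lists, 56.7% were in Sox2 mitotic 1, against 54.3% of 658 sites in none, a difference of 2.40 points (−5.05 to 9.68). In Sox2 mitotic 2 it was 32.6% against 24.0%, a difference of 8.61 points (1.97 to 15.6), which was 3.59 (−2.81 to 10.00) within quintiles of strength. A difference of several points either way lies within these intervals, the unadjusted one in mitotic 2 excepted. Presence in both mitotic Sox2 lists at once differed more, by 11.2 points (4.73 to 18.1) in favour of the sites with H3K27ac. Within quintiles that difference was 5.93 points (−0.388 to 12.3), an interval that included 0.

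The place of H3K27ac relative to the Sox2 peak was then counted. In asynchronous H3K27ac list 1, 135 of the 995 sites (13.6%, against 22.3% of all Sox2 sites) were wholly inside an H3K27ac peak and 172 (17.3%, against 29.7%) were partly covered. A further 201 (20.2%, against 18.3%) were not covered but had an H3K27ac peak within 500 bp, and 487 (48.9%, against 29.7%) had none within 500 bp. List 2 gave 111 (11.2%, against 17.1% of all), 152 (15.3%, against 31%), 220 (22.1%, against 20.1%) and 512 (51.5%, against 31.8%). Mitotic list 1 gave 86 (against 19.6% of all), 58 (against 13.2%), 93 (against 11.9%) and 758 (76.2%, against 55.4%). Mitotic list 2 gave 108 (against 20.8%), 45 (against 11.8%), 63 (against 9.21%) and 779 (78.3%, against 58.2%). So the sites wholly inside numbered 135 and 111 in asynchronous lists and 86 and 108 in mitosis. The partly covered and the adjacent ones together numbered 373 (37.5%) and 372 (37.4%) in asynchronous lists and 151 (15.2%) and 108 (10.9%) in mitosis. All Sox2 sites moved alike, from 48.0% and 51.1% to 25.1% and 21.0%, so this contrast is not one of Sox2-alone sites.

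The share with no H3K27ac within 500 bp was above that of the other Sox2 sites by 28.8 points (25.2 to 32.3), 29.5, 31.2 and 30.1 points in the 4 lists. Against sites with Oct4 and no Klf4 it differed by 2.75 (−2.94 to 8.40), 2.17 (−3.52 to 7.84), 4.75 (−0.190 to 9.92) and 5.91 points (1.05 to 11), and only the last interval did not include 0.

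A valley was counted where the midpoint of the Sox2 peak was uncovered and an H3K27ac peak lay within 1 kb on both sides. Such valleys were seen at 196 (19.7%) and 185 (18.6%) Sox2-alone sites in asynchronous lists, against 35.4% and 40.9% of the other Sox2 sites and 30.1% and 33.5% of all. In mitosis they were seen at 40 (4.02%) and 17 (1.71%), against 10.7% and 8.74% of the others and 8.51% and 6.4% of all. With 2 libraries a state, the smallest p for a difference is 0.33, and the project differed with the state. Against sites with Oct4 and no Klf4, the valley shares differed by −3.40 (−8.27 to 1.18) and −3.31 points (−8.10 to 1.17) in asynchronous lists and by −0.504 (−3.16 to 1.63) and −3.05 points (−5.61 to −1.11) in mitosis, where the last interval did not include 0.

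**Figure D4:**
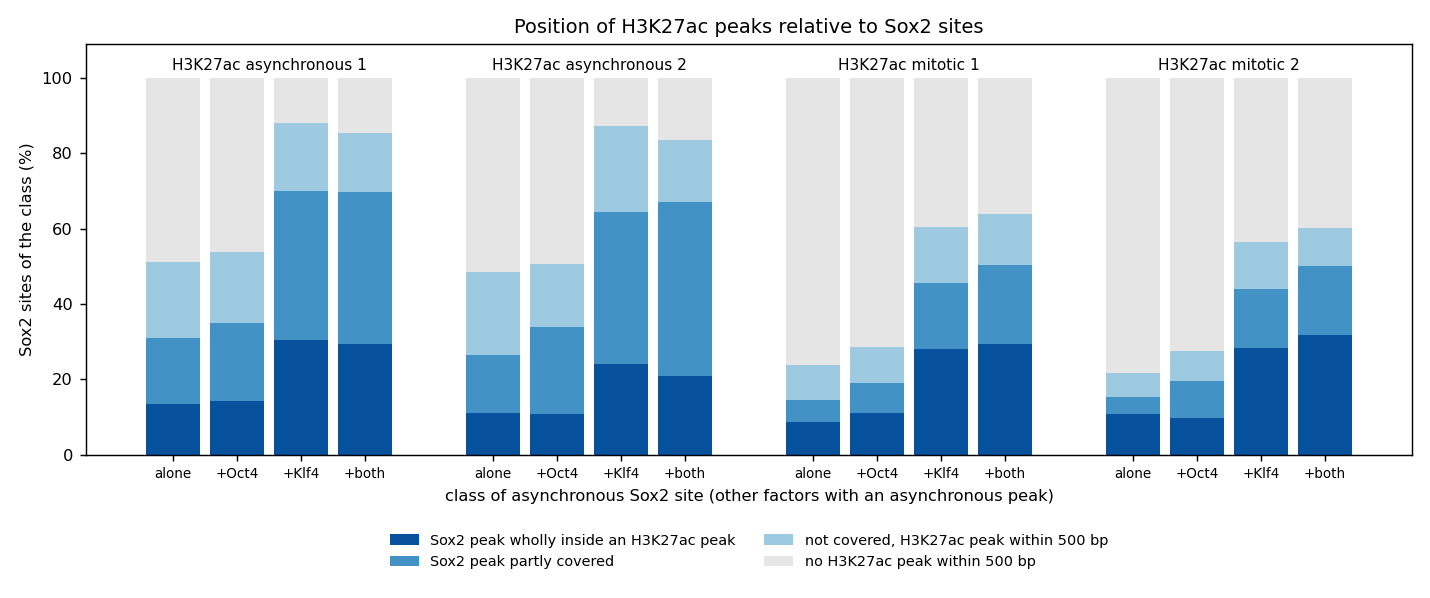
Percent of sites (y axis) in each of the 4 classes of asynchronous Sox2 site (x axis; alone, +Oct4, +Klf4, +both) whose Sox2 peak was wholly inside, partly covered by, or within 500 bp of an H3K27ac peak, or had none within 500 bp, for 4 H3K27ac lists. In asynchronous list 1, 48.9% of sites alone and 46.2% of sites with Oct4 lack H3K27ac within 500 bp, against 11.9% of sites with Klf4 and 14.6% of sites with both.

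Sox2-alone sites lay somewhat farther from genes than the others. Of the 995, 42 (4.22%, against 5.29% of all Sox2 sites) were within 1 kb of an end of a protein-coding gene, and 411 (41.3%, against 42.1%) were inside a gene span, as introns or exons, which the gene table does not tell apart. Outside genes and over 20 kb from any gene end were 372 (37.4%, against 32.8% of all), 6.90 points above the other sites (3.30 to 10.5). The median distance to a gene end was 29.6 kb, against 20.6 kb. Sites were spread over 21 chromosomes, with 87 on chromosome 6 and 72 on chromosome 13. They made up 39.5% and 39.1% of the Sox2 sites there, against 33.3% of all Sox2 sites. The share was higher on chromosomes 16 (41.7%) and X (47.6%, 20 sites). Within 10 kb of another Sox2-alone site lay 24, a count with no counterpart here for the other Sox2 sites.

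Mitotic shares were also set out by position. Of the sites outside genes and over 20 kb away, 62.1% (57.1 to 66.9) were in Sox2 mitotic 1, against 49.1% (44.3 to 54.0) of sites inside gene spans. In mitotic 2 the shares were 29.0% (24.7 to 33.8) and 24.8% (20.9 to 29.2). The share with Oct4 in a mitotic list was 27.2% against 18.0%, and it was 2 of 42 within 1 kb of a gene end. The difference between positions was not tested.

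Within 20 kb of a gene end, Sox2-alone sites reached 589 of 21887 protein-coding genes (2.69%), and other Sox2 sites 1424 (6.51%). Of the 589, 112 had a site in both mitotic Sox2 lists and 284 had only sites in neither. Counts below over lists of genes stand beside that 2.69%, and a site can reach several genes.

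Of 30 genes of naive pluripotency, 3 were reached (Pou5f1, Nanog and Gdf3), all 3 of them also by other Sox2 sites, which reached 18. A site 15.3 kb from Pou5f1, the Oct4 gene (chr17:35490530-35490692), had Sox2 folds of 4.61 in asynchronous cells and 6.09 and 4.85 in mitosis, and H3K27ac in all 4 lists (5.42 to 8.85). A second lay 0.846 kb from the gene (chr17:35505032-35505186) and 585 bp from an asynchronous Oct4 peak. It had a fold of 4.57, no mitotic Sox2 peak, a Klf4 peak of 4.00 in Klf4 mitotic 3, and H3K27ac folds of 38.3, 27.7, 11.3 and 67.4. The last pair, 11.3 and 67.4, are mitotic replicates. The site 3.91 kb from Nanog, a homeobox gene of the naive state (chr6:122703441-122703583), had a fold of 4.70, lay 180 bp from a Klf4 peak, and was in neither mitotic Sox2 list, with H3K27ac at 39.8, 35.3, 18.1 and 14.7. The site 14.0 kb from Gdf3, a TGF-beta family ligand, lay inside another gene, Apobec1. It had Sox2 folds of 5.96, 3.99 and 4.86 and H3K27ac only in asynchronous list 1 (5.37).

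Among 38 genes of LIF, Wnt, Bmp, Nodal and Fgf signalling 3 were reached. The site 8.49 kb from Lifr, the LIF receptor subunit gene (chr15:7081937-7082122), had Sox2 folds of 8.11 in asynchronous cells and 7.60 and 6.28 in mitosis, and H3K27ac only in asynchronous list 2 (7.75). Sites by Acvr1b, an activin and Nodal receptor gene (6.21), and Spry1, an Fgf pathway inhibitor gene (5.45), were in neither mitotic list and had no H3K27ac. Only the Lifr site of the 3 had mitotic Sox2. It was also the strongest of them in asynchronous cells, with a −log10 p of 13.7 against 9.08 (Acvr1b) and 6.95 (Spry1).

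Of 43 chromatin regulators 1 was reached, Suz12, whose site is described above. Of 19 Sox family genes 1 was reached, Sox13, by a site of fold 6.69 inside the gene that had no mitotic Sox2 peak and H3K27ac in all 4 lists (4.07 to 6.62). Of 28 endoderm and mesoderm regulators 1 was reached, Msgn1, a presomitic mesoderm gene, by a site of fold 6.25 with 7.65 in mitotic 1 and nothing in mitotic 2. Of 35 neuronal genes 1 was reached, Grin2b, an NMDA receptor subunit gene, by a site of fold 5.82 in neither mitotic list.

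None of 34 neural progenitor genes was reached by a Sox2-alone site, and 9 were reached by other Sox2 sites. None of 22 genes of primed pluripotency was reached, with 3 by other sites, and none of 20 feeder fibroblast genes. Of 30 genes of the mitotic cell cycle 3 were reached: Ncapd2, Cenpa, the centromeric histone H3 gene, and Cdc25c, a phosphatase gene of mitotic entry. All their sites were in neither mitotic Sox2 list, with asynchronous folds of 4.65 to 5.51. By strength they lay in quintiles 1 to 3, where 58.7%, 51.5% and 41.4% of Sox2-alone sites were in neither list. The Cenpa site was nearest to another gene, Slc35f6 (0.549 kb), and the Cdc25c site to Gfra3 (4.34 kb). The second Ncapd2 site was also the one that reached Gapdh, 1 of 25 housekeeping genes.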

How the data were processed

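Peak lists in narrowPeak format (mm10) were deposited for 17 ChIP-seq libraries of mouse embryonic stem cells, 1 list per library. Per the submitters' processing notes, cutadapt 1.8.1, Bowtie2 2.2.5, deepTools 2.3.6 and MACS2 2.1.1 were used; their settings are not given in the sources used here. The authors gave each peak a score, a fold enrichment (ratio), and −log10 values of p and q. The lowest deposited −log10 p in any list was 5.00. Summits were not used here. Peak names in the asynchronous Sox2 list were numbered up to 14755 while 2986 peaks were listed, so a site without a peak is one without a listed peak. Replicate numbers of Klf4 follow accession order. In the Oct4 mitotic lists the names within the files carry the numbers the other way round; the labels were followed.

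Overlaps were computed in Python 3.11.15 with pandas 2.3.3, numpy 2.4.6 and scipy 1.17.1, and figures drawn with matplotlib 3.10.9. Peaks sharing at least 1 bp overlapped. Shares have 95% Wilson intervals and differences of shares 95% Newcombe intervals; within quintiles of −log10 p, differences were weighted by the Sox2-alone sites. These scripts were tested on simulated data. Genes came from a RefSeq table of 21887 protein-coding genes (GRCm38.p6) without strand, and 17492 of them had a promoter sequence. Named sites were those of highest −log10 p: 10 in both and 8 in neither mitotic Sox2 list, and 5 each with Oct4 in both mitotic lists, Klf4 in at least 2, H3K27ac in all 4, or both mitotic Sox2 lists without H3K27ac; and all sites within 20 kb of a gene of the 12 lists (322 genes). Sites at promoters are also named. The sites and lists were chosen with earlier results of these data known. One site that this rule names is not reported here.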

Additional observations from a re-analysis of the deposited data

How the results depend on the processing

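No group had more than 3 libraries. Under the alternatives, 80 values were counted as unchanged, in most cases for staying within the spread or on the same side, and 29 were not. The number of sites has neither a spread nor a side. Of its 10 values, 9 are among the 80, although one of them was 1444 against 995, so they say nothing of stability. For means over lists the spread was the SD of 2 or 3 libraries. Leaving out 1 of those same libraries cannot move their mean beyond that SD. Such values are counted among the 80 and say nothing of stability. The difference in mitotic recovery between Sox2-alone and other Sox2 sites kept its sign, with an interval below 0, in all 13 alternatives run for it (−30.7 to −14.2 points). Some of these runs add no support. Leaving out a mitotic Sox2 list, or splitting by quintile (−14.2), repeats differences given above. Excluding mitotic Oct4 and Klf4 peaks too (−30.7) took sites found more often in mitosis out of the Sox2-alone class. No paired analysis was possible because the results are overlaps of peak lists and the replicate numbers do not pair libraries. Requiring an overlap of 50% of the narrower peak gave H3K27ac at 16.0% of sites in asynchronous and 11.8% in mitotic lists, and counting peaks within 500 bp gave 46.8% and 19.6%. With a −log10 q of at least 1.3, both mitotic Sox2 lists held 19.7%. With at least 5, 376 sites were left, both lists held 19.7% and neither 31.6%, and H3K27ac stood at 41.8% and 19.0%. Lists of equal length gave 36.5% in both, 38.7% in neither, and H3K27ac at 38.8% and 23.7%. Using only project EC-EA-3702 gave 1444 sites, 30.9% in both, 38.5% in neither, mitotic Klf4 at 11.7%, and H3K27ac at 39.4% and 22.5%. Excluding mitotic Oct4 and Klf4 peaks too, an alternative chosen after seeing the data, left 729 sites with 16.7% in both, 50.6% in neither and mitotic H3K27ac at 13.2%. Genes reached numbered 184 within 5 kb and 1262 within 50 kb. The cause of these shifts was not tested.

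Leaving out 1 library at a time gave 1012 to 1247 sites, 23.4% to 54.8% in both Sox2 lists, 39.9% to 73.8% in neither, and H3K27ac at 26.4% to 35.1% in asynchronous and 14.5% to 19.0% in mitotic lists. The mean in the mitotic Sox2 lists was 26.2% to 54.8%, in the Oct4 lists 4.42% to 21.9% and in the Klf4 lists 1.46% to 4.25%. Without Sox2 mitotic 1, 73.8% were in no list left, and without Sox2 mitotic 2, 54.8% were in the one left, since a single list then decides. The difference in recovery was −25.7 to −21.1 points, where −25.7 is the difference in mitotic 2 alone, given above. Without Klf4 asynchronous 2, the longest Klf4 list, there were 1247 sites, with 27.8% in both Sox2 lists and H3K27ac at 35.1% and 19.0%. The nearest gene was the same for 994 of 995 sites when measured from the midpoint. Read depth was unknown, so weak sites could be missing from a list for that reason, which was not tested.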
